A study of Mus musculus with 4 samples.

Results

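The genes described here are the 3 Id genes Id1, Id2 and Id3 and the 3 E protein genes Tcf3, Tcf4 and Tcf12, taken by symbol as 6 of the 24346 gene rows of an RNA sequencing table. The cells were regulatory T (Treg) cells, the Foxp3-expressing CD4+ T cells that damp immune reactions, sorted from mouse spleens as Thy1.2+ and Foxp3-Cre-GFP+. All mice were male, 16 weeks old and carried Foxp3-Cre, a recombinase driven in Foxp3-expressing cells. In 2 libraries, called WT_0 and WT_1, Tcf1 and Lef1 were wild type. In the other 2, called dKO_0 and dKO_1, the mice were double floxed for Tcf1/Lef1 and the genotype is given as Tcf1-/-Lef1-/-. Tcf1 and Lef1 are related DNA-binding proteins of T cell development and Wnt signalling, and Tcf7 is the gene of Tcf1. Despite their symbols, Tcf3, Tcf4 and Tcf12 belong to a different protein family from Tcf1. The labels do not say whether the libraries of a group are from different mice. P-values therefore measure the spread between libraries, which may be technical.

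E proteins are basic helix-loop-helix (HLH) transcription factors that bind DNA as dimers at a short motif called the E-box, written CANNTG. Tcf3 encodes E2A, with its splice forms E12 and E47, Tcf12 encodes HEB, and Tcf4 encodes E2-2, a factor of plasmacytoid dendritic cells and B lineage cells. Id proteins have the helix-loop-helix part but no DNA-binding part, so an E protein paired with an Id protein cannot bind the E-box. In T cells, E proteins act in thymocyte development, and Id2 and Id3 hold them in check in mature cells. In mouse CD8 T cells, Id2 is a factor of effector cells and Id3 marks memory precursors, and mouse Treg cells need Id2 and Id3 together for their maintenance.

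Values are FPKM (fragments mapped to a gene, scaled by its length and by library size), so levels of different genes can be set side by side. Relative depths, read from the value of 1 fragment in low rows, were 1.21 for WT_1, 1.22 for dKO_0 and 1.31 for dKO_1 against WT_0, at an estimated 17800000 to 23300000 fragments per library. The test was limma on log2(FPKM + 1) over the 11595 rows that reached an FPKM of 1 in 2 or more libraries, and a gene is called when its Benjamini-Hochberg adjusted p was under 0.05. Limma called 0.345% of the rows tested, 0.181% as higher and 0.164% as lower in dKO, and in 51.2% of them the WT and dKO libraries did not overlap. At an unadjusted p below 0.05, 9.64% of the rows tested were higher and 7.08% lower. Both targeted genes had less transcript in each dKO library than in either WT library, though limma called neither. Tcf7 stood at 345 and 309 FPKM in the WT pair against 247 and 249.6 in the dKO pair, a ratio of 0.759, and Lef1 at 59.9 and 66.5 FPKM against 41.3 and 36.0, a ratio of 0.612 (limma adjusted p = 0.158 and 0.113). The authors' deposited table lists Lef1 as lower (q = 0.00365) and does not list Tcf7 (q = 0.153). A gene-level FPKM also counts exons outside the floxed part. The source of the Tcf7 and Lef1 transcript that remained in dKO was not tested. All 7 Treg markers examined (Foxp3, Il2ra, Ctla4, Ikzf2, Tnfrsf18, Cd4 and Cd3e) passed the filter, 5 higher and 2 lower in dKO, and limma called 0 of them. The 1 with an unadjusted p below 0.05 was Foxp3. It had 113 and 121 FPKM in the WT pair against 133 and 144 in the dKO pair. In bulk samples, fewer cells expressing a gene and less RNA per cell cannot be told apart.

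Of the 6 genes, Id2 rose in dKO Treg cells and the other 5 did not pass the test. All 6 passed the filter on low values. Id2 was at 51.6 FPKM in WT_0 and 53.6 in WT_1, and at 103 in dKO_0 and 98.6 in dKO_1. Both dKO libraries lay far above both WT libraries, and the libraries of a group differed little from each other. The mean was 52.6 ± 1.46 FPKM for WT (SD, n = 2) and 101 ± 3.41 FPKM for dKO (SD, n = 2), a ratio of 1.92. On the log2 scale the difference was 0.93 (SE 0.0594, 95% interval 0.77 to 1.09, limma adjusted p = 0.0272). By its p, Id2 was at rank 25 among the rows tested. Its level moved from the 84.2 percentile of tested rows in WT to the 91.8 percentile in dKO. The authors' deposited table also lists Id2 as higher, with a log2 fold of 0.94 and a q of 0.00365, where its lists hold 0.76% of all rows as higher and 0.604% as lower. Without dKO_0 the adjusted p was 0.256 and without dKO_1 it was 0.257, at differences of 0.89 and 0.96, and limma then called 2 rows in all. With rows of small RNAs left out, limma called 186 rows, and Id2 had an adjusted p = 0.0066, the lowest over its 14 alternatives, whose highest was 0.257.

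**Figure D1:**
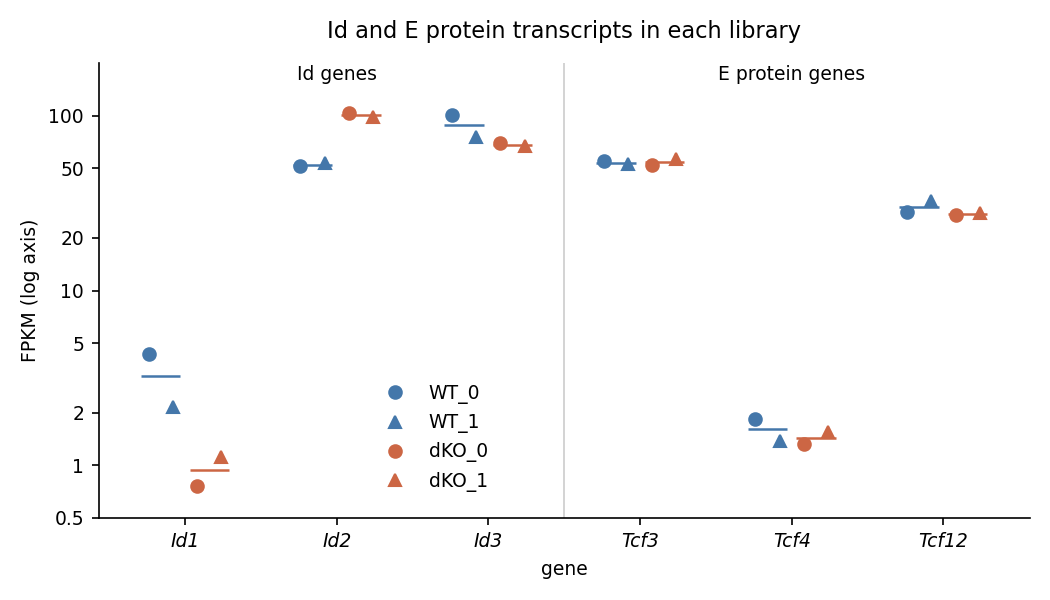
FPKM of the 6 genes (log axis) in each library, WT in blue and dKO in orange, with circles for suffix 0, triangles for suffix 1 and bars for the mean of 2 libraries. The Id2 points of dKO, at 103 and 98.6 FPKM, lie above those of WT, at 51.6 and 53.6, while the Tcf3 points of the groups overlap.

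Id2 lies on mouse chromosome 12, 25093799 to 25097140, minus strand (GRCm38), and no other annotated gene overlaps it. E-boxes were looked for in the 250 bases before each start site in the RefSeq promoter table (build GRCm38.p6), which gave 6 start sites for 4 of the genes (Id2, Id3, Tcf3 and Tcf12). The motif CANNTG reads the same on both strands. It was found 1 time before the start of Id2, 1 time before that of Tcf3, 1 time before each of 2 start sites of Tcf12, and 0 times before that of Id3 and the third start site of Tcf12. It is common: 66.2% of all promoters in the table hold at least 1 in a window of that length. CTTTGA, the core of the motif bound by Tcf1 and Lef1, searched on both strands, was found 0 times in these windows, against 13.8% of all promoters. No match says only that these letters are not in this window. The sequences below show the E-box, the DNA word that an E protein reads and an Id protein keeps it from reading, as it stands before these start sites, 5′ to 3′ on the gene's strand and with the E-box in capitals. The stretches shown for Id2 and for the second start site of Tcf12 lie within the span of the annotated gene. Those of Tcf3 and of the first start site of Tcf12 lie before it. For Id2 the stretch runs from base -250 to -162 before the start, the part outside annotated exons. Of all promoters, 33% hold an E-box in that stretch.
Id2, chr12:25096254-25096342, minus strand: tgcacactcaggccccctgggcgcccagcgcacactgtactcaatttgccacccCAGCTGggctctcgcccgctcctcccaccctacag
Tcf3, chr10:80433674-80433699, minus strand: tgggcgtggtCACTTGggggcgtggc
Tcf12, first start site, chr9:72112044-72112069, minus strand: agatgctgccCAGCTGcgtccccgtc
Tcf12, second start site, chr9:72111335-72111360, minus strand: cagggcggccCAAGTGggaggtggag
The Id2 site and that of the first Tcf12 start share the form CAGCTG, which 13% of all promoters hold.

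Id3, the other Id gene at a high level in these cells, lay the other way but was not called. Its values were 101 FPKM in WT_0 and 75.7 in WT_1, and 69.5 in dKO_0 and 67.4 in dKO_1. The dKO libraries were alike and below both WT libraries, while the WT libraries differed from each other by more than WT_1 differed from either dKO library. The mean was 88.4 ± 18.0 FPKM for WT (SD, n = 2) and 68.4 ± 1.53 FPKM for dKO (SD, n = 2). The log2 difference was -0.35 (SE 0.151, 95% interval -0.76 to 0.06, limma adjusted p = 0.343). It rested on WT_0: without WT_0 the difference was -0.14 (adjusted p = 0.285), and without WT_1 it was -0.56 and was called (adjusted p = 0.046; the 14 alternatives spanned 0.046 to 0.76). In the authors' deposited table, Id3 had a log2 fold of -0.37 and a q of 0.385 and was in neither list. Id3 lies on chromosome 4, 136143497 to 136145755, plus strand (GRCm38), with no overlapping gene.

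Id1, an Id gene better known from endothelial, stem and progenitor cells, was near the lower limit of the test. Its FPKM was 4.33 for WT_0 and 2.15 for WT_1, and 0.763 for dKO_0 and 1.12 for dKO_1. Both dKO libraries were below both WT libraries, and the WT libraries stood well apart from each other. At the estimated depths and annotated mRNA lengths of 934 to 1160 bases, these values stand for roughly 72 to 89 fragments in WT_0, 43 to 54 in WT_1, 15 to 19 in dKO_0 and 24 to 30 in dKO_1. The log2 difference was -1.08 (SE 0.296, 95% interval -1.88 to -0.29, limma adjusted p = 0.215). On the log2(FPKM + 1) scale the change of a gene this low is understated. With a pseudocount of 0.1 the difference was -1.62 (adjusted p = 0.202). Without WT_0 it was -0.71 and without WT_1 -1.46 (adjusted p = 0.153 and 0.0516, with 0.684 the highest over its 13 alternatives). The authors' deposited table gives a log2 fold of -1.78 with a q of 0.135. Id1 lies on chromosome 2, 152736251 to 152737410, plus strand (GRCm38). Id4, the last gene of the Id family, was listed at 0 in all 4 libraries.

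Among the E protein genes, none was called by limma, and 0 of the 3 had an unadjusted p under 0.05. Tcf3 was the highest of them, at 54.8 FPKM in WT_0 and 52.9 in WT_1, against 52.2 in dKO_0 and 56.6 in dKO_1. The groups overlapped, and both the lowest and the highest value were in dKO. Its log2 difference of 0.01 (SE 0.0668) had a limma adjusted p = 0.93. Its 95% interval, -0.17 to 0.19, does not reach the difference of Id2. The sign of so small a difference turned with the scaling, to -0.04 after quantile normalization and -0.0066 after median centring.

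The FPKM of Tcf12 was 28.1 for WT_0 and 32.4 for WT_1, and 27.2 for dKO_0 and 27.8 for dKO_1. The groups did not overlap, but WT_0 was closer to dKO_1 than to WT_1. The log2 difference was -0.13 (SE 0.0865, 95% interval -0.36 to 0.11, limma adjusted p = 0.504). It moved from -0.23 without WT_0 to -0.03 without WT_1. Within the span of Tcf12 on chromosome 9, 71842688 to 72111871, minus strand (GRCm38), the annotation has 7 genes on the same strand and 4 on the other, so its reads may not all be its own.

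Tcf4 was low, at 1.83 FPKM in WT_0 and 1.38 in WT_1, against 1.33 in dKO_0 and 1.54 in dKO_1, in overlapping groups. The log2 difference was -0.09 (SE 0.153, 95% interval -0.51 to 0.32, limma adjusted p = 0.786), and 0.03 without WT_0. Plasmacytoid dendritic cells are a known source of Tcf4. The summed FPKM of 7 markers of these cells was 39.9 to 68.7 in WT and 60.0 to 70.0 in dKO. This sum rests mostly on Ly6d (10.8 to 33.3 FPKM) and Pacsin1 (18.7 to 22.8 FPKM). The defining marker Siglech was at 0.254 to 0.51 FPKM. Klk1 was listed at 0 in WT_1 and dKO_1, at 1.09 FPKM in WT_0 and at 0.0592 in dKO_0. Of the 7 markers, 5 passed the filter, 3 higher and 2 lower in dKO. Limma called 0, though 1 higher and 1 lower had an unadjusted p below 0.05. Over all rows tested, 9.64% were higher and 7.08% lower at that p. The 8 B cell markers summed to 125 FPKM in WT_0 and 47.1 in WT_1, against 123 in dKO_0 and 185 in dKO_1. Tcf4 was lower in WT_1 than in WT_0 and lowest in dKO_0. The part of such cells in the values of Tcf4 was not tested.

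**Figure D2:**
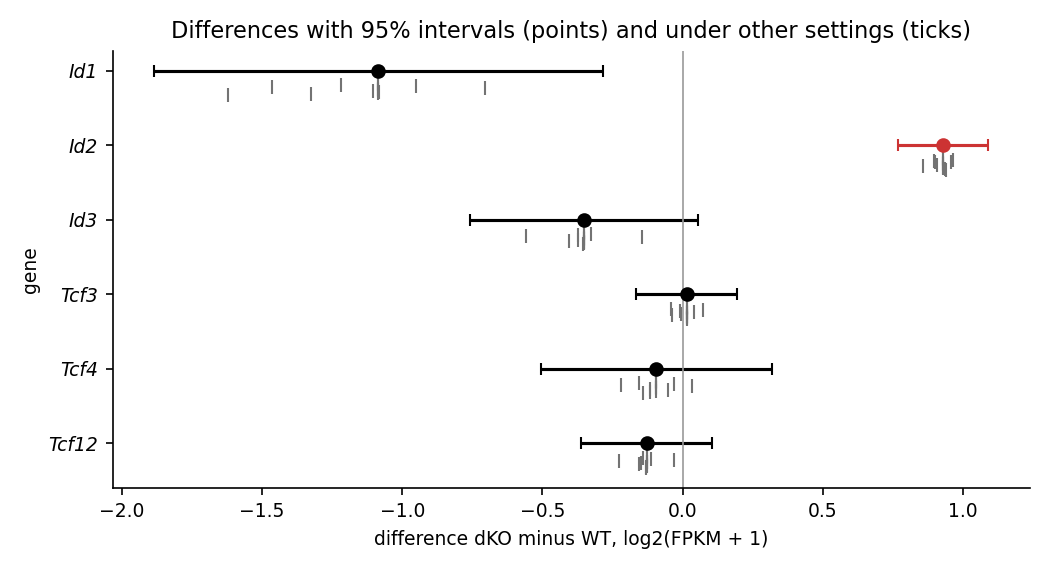
Difference dKO minus WT of each gene on the log2(FPKM + 1) scale with its 95% interval from limma (points; red, adjusted p under 0.05), and under each alternative setting (ticks; settings with another pseudocount are on their own log2 scale). The interval of Id2 runs from 0.77 to 1.09, while those of Id3, Tcf3, Tcf4 and Tcf12 include 0.

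In 4 of the 6 genes the groups did not overlap, 1 higher and 3 lower in dKO, where 27.8% of all rows tested did not overlap with dKO higher and 23.4% with dKO lower. The share that did not overlap in either direction was 51.2% over all rows, near that of the 6 genes, and nothing is read from it.

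The order of the Id genes within a library changed between the groups. Id3 was above Id2 in both WT libraries, and Id2 was above Id3 in both dKO libraries. The ratio of Id2 to Id3 FPKM was 0.51 in WT_0 and 0.708 in WT_1, and 1.49 in dKO_0 and 1.46 in dKO_1. It was below 1 in both WT libraries and above 1 in both dKO libraries, with group means of 0.609 ± 0.14 and 1.48 ± 0.0168 (SD, n = 2 each). With 2 libraries against 2, an exact two-sided permutation test cannot go below p = 0.333, the value this ratio has. Id2 made up 32.8% of the summed FPKM of Id1, Id2 and Id3 in WT_0 and 40.8% in WT_1, against 59.5% in dKO_0 and 59% in dKO_1.

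In WT, the order by mean FPKM was Id3, Tcf3, Id2, Tcf12, Id1 and Tcf4. The means of Tcf3 and Id2, 53.8 ± 1.36 and 52.6 ± 1.46 FPKM (SD, n = 2 each), did not differ beyond their spread. In dKO it was Id2, Id3, Tcf3, Tcf12, Tcf4 and Id1. The libraries of other neighbours in either order did not overlap. Set against Tcf3, the most abundant E protein transcript, Id2 stood at a ratio of 0.941 in WT_0 and 1.01 in WT_1, and of 1.98 in dKO_0 and 1.74 in dKO_1.

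The total of Id transcripts moved less than Id2 alone. Id1, Id2 and Id3 summed to 157 FPKM in WT_0 and 132 in WT_1, against 174 in dKO_0 and 167 in dKO_1. Tcf3, Tcf4 and Tcf12 summed to 84.8, 86.6, 80.8 and 86 FPKM in the same order. The ratio of the Id sum to the E protein sum was 1.85 in WT_0 and 1.52 in WT_1, and 2.15 in dKO_0 and 1.94 in dKO_1. Both dKO libraries were above both WT libraries, but dKO_1 was closer to WT_0 than WT_0 was to WT_1. The group means were 1.69 ± 0.237 and 2.05 ± 0.146 (SD, n = 2 each), a difference of 0.361 that fell to 0.193 without WT_1 and was 0.528 without WT_0. These sums are of transcripts and not of proteins, and no test was made of them.

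**Figure D3:**
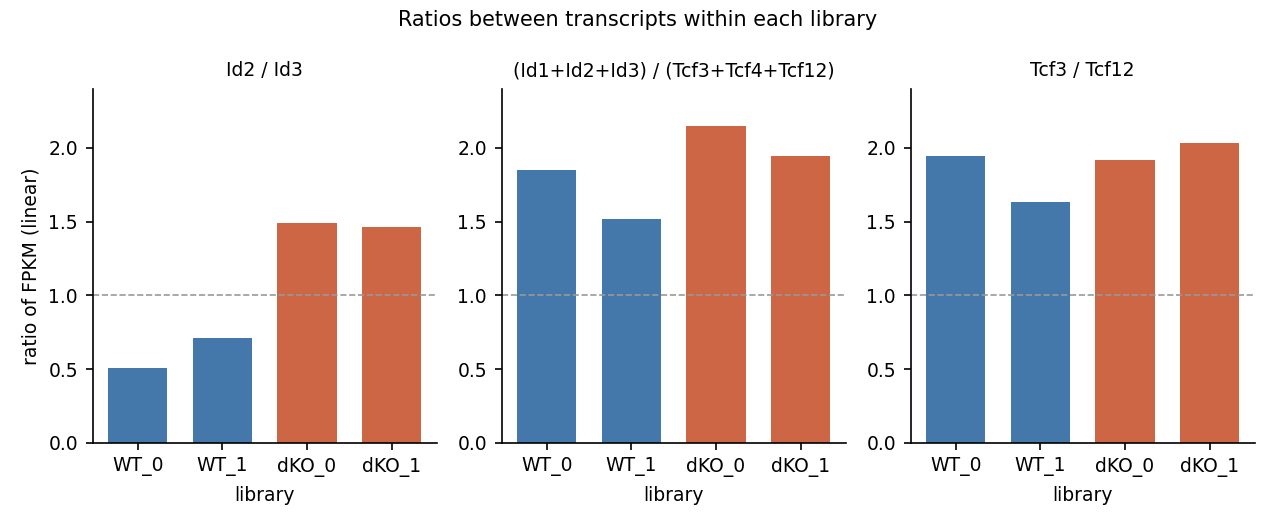
Ratios of FPKM within each library (linear axis from 0; dashed line at 1) for Id2 over Id3, the sum of the Id genes over the sum of the E protein genes, and Tcf3 over Tcf12. Id2 over Id3 is 0.51 and 0.708 in WT and 1.49 and 1.46 in dKO, whereas Tcf3 over Tcf12 lies between 1.63 and 2.04 in all 4 libraries with overlapping groups.

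Markers of other cells the sort could hold were read beside these values, among them NK and innate lymphoid cells, which are known to express Id2, and so were markers of dividing cells. The 6 dividing cell markers (Mki67, Top2a, Ccnb1, Cdk1, Birc5 and Rrm2) summed to 106 FPKM in WT_0 and 75.3 in WT_1, against 163 in dKO_0 and 180 in dKO_1. All 6 were higher in dKO. Limma called 0, while 6 had an unadjusted p below 0.05, where 9.64% of all rows tested were higher at that p. The authors' deposited table lists all 6 as higher. Id2 was also higher in dKO, and had 51.6 FPKM in WT_0 and 53.6 in WT_1. The part of dividing cells in the difference of Id2 was not tested, and 2 libraries per group cannot settle it. The 7 NK and innate lymphoid markers summed to 55.8 and 65.6 FPKM in the WT pair against 67.4 and 61.3 in the dKO pair, and the defining NK marker Ncr1 had 4.95 and 4.7 FPKM in the WT pair against 2.15 and 3.63 in the dKO pair. These NK sums overlapped between the groups and rest mostly on Il18r1, which had 33.6 and 39.4 FPKM in the WT pair against 48.1 and 41.9 in the dKO pair. Of the 7 markers, 5 were lower in dKO and 2, Il18r1 and Eomes, were higher. Limma called 0, though 4 lower (Ncr1, Klra8, Klrb1c and Klrk1) and 1 higher (Eomes) had an unadjusted p below 0.05. Over all rows tested, 7.08% were lower and 9.64% higher at that p. The part of such cells in the difference of Id2 was not tested. Both CD8 T cell markers had higher means in dKO. Cd8b1 was not called and had 7.55 and 7.94 FPKM in the WT pair against 8.97 and 8.74 in the dKO pair. Cd8a did not pass the filter, with 0.665 and 0.487 FPKM in the WT pair against 0.83 and 1.39 in the dKO pair. The part of CD8 T cells was not tested either. Monocyte and macrophage markers, 6 genes led by Lyz2, summed to 287 and 373 FPKM in the WT pair against 277 and 256 in the dKO pair. All 6 were lower in dKO. Limma called 0, and 4 had an unadjusted p below 0.05, where 7.08% of all rows tested were lower at that p. Id1 and Id3 were also lower in dKO. Between the WT libraries, the marker sum was higher in WT_1, and Id1 and Id3 were higher in WT_0. The part of such cells in the values of Id1 and Id3 was not tested, and 2 libraries per group cannot settle it.

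Genes reported as E protein targets in lymphocytes were split, 6 higher and 8 lower in dKO. Of 19 listed genes, 14 passed the filter and limma called 0, though 3 lower and 1 higher had an unadjusted p below 0.05. Over all rows tested, 7.08% were lower and 9.64% higher at that p. The median log2 difference was -0.09, against 0.01 over all rows tested. Cxcr4, the receptor of the chemokine Cxcl12, had 165 and 215 FPKM in the WT pair against 134 and 90.1 in the dKO pair (log2 difference -0.78, limma adjusted p = 0.245), and the authors' deposited table lists it as lower. Foxo1, a factor of quiescent lymphocytes, had 59.1 and 66.6 FPKM in the WT pair against 51.5 and 50.3 in the dKO pair (adjusted p = 0.208). Socs1, a cytokine signalling inhibitor, had 146 and 153 FPKM in the WT pair against 134 and 131 in the dKO pair (adjusted p = 0.282). For each of these 3 genes, named for a small p, the groups did not overlap. Over the 14 tested this held for 3 higher and 5 lower. Over all rows tested the share was 51.2%, and nothing is read from it.

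Of 11 tested genes that accompany Id2 in effector T cells, limma called 2 as higher and 0 as lower. Over all rows tested it called 0.181% as higher and 0.164% as lower. At an unadjusted p below 0.05, 5 of the 11 were higher and 1 was lower, against 9.64% and 7.08% of all rows tested. The authors' deposited table lists 4 of them as higher and 0 as lower. The list had a median log2 difference of 0.34, which was 0.17 without WT_0 and 0.51 without WT_1. Gzmb, the granule protease granzyme B, was at 8.99 and 8.34 FPKM in WT and at 84.1 and 95.4 in dKO (limma adjusted p = 0.00255). Prf1, which encodes the pore-forming protein perforin, was at 9.08 and 8.49 FPKM in WT and at 21.1 and 19.7 in dKO (adjusted p = 0.0286). As with Id2, leaving out dKO_0 or dKO_1 removed both calls. The other 9 of the list went both ways, 4 of them higher and 5 lower. This list was written with the rise of Id2, Gzmb and Prf1 in these libraries already known, so their common direction is no independent evidence.

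Genes that accompany Id3 in memory and follicular T cells were lower in 8 of 11 tested. Limma called 0, though 5 lower and 1 higher had an unadjusted p below 0.05. Over all rows tested, 7.08% were lower and 9.64% higher at that p. The median log2 difference was -0.30, against 0.01 over all rows tested. It was -0.09 without WT_0. Bach2, a repressor of effector genes, had 14.4 and 15 FPKM in the WT pair against 9.2 and 9.55 in the dKO pair (limma adjusted p = 0.0884). Ccr7, a receptor for homing to lymph nodes, had 106 and 89.1 FPKM in the WT pair against 66.7 and 63.9 in the dKO pair (adjusted p = 0.139). Eomes, a T-box factor, went the other way, with 3.48 and 3.08 FPKM in the WT pair against 5.48 and 4.89 in the dKO pair (adjusted p = 0.158). Tcf7, one of the targeted genes, is on this list and among the 5 lower at that p. Il7r, Cxcr5 and Foxo1 are also on the list of E protein targets.

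Of the receptors and Smads of BMP and TGF-beta signalling upstream of Id genes, inhibitory Smads included, 13 of 20 passed the filter. Of these, 10 were lower in dKO. Limma called 0, though 3 lower and 0 higher had an unadjusted p below 0.05. Over all rows tested, 7.08% were lower and 9.64% higher at that p. The median log2 difference was -0.13, against 0.01 over all rows tested. The lowest p-values were those of the TGF-beta receptor gene Tgfbr2 (75.8 and 74 FPKM in the WT pair, 65.1 and 65.3 in the dKO pair, adjusted p = 0.21), the shared signal carrier Smad4 (38.1 and 38.7 FPKM in the WT pair, 32.1 and 34.2 in the dKO pair, adjusted p = 0.234) and the activin receptor gene Acvr2a (1.73 and 1.93 FPKM in the WT pair, 1.16 and 1.2 in the dKO pair, adjusted p = 0.265). Smad1, a carrier of BMP signals, had 7.91 and 9.29 FPKM in the WT pair against 6.96 and 7.01 in the dKO pair (adjusted p = 0.307). The BMP receptor genes Bmpr1a and Acvr1 were under an FPKM of 1 in all 4 libraries, and Bmpr1b was listed at 0 in all of them. These low genes were chosen for mention after their values were seen.

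Among partners and cofactors of E proteins, 14 of 16 were tested, 4 higher and 10 lower, and limma called 0. At an unadjusted p below 0.05, 1 was higher and 3 were lower, against 9.64% and 7.08% of all rows tested. Their median log2 difference was -0.10, against 0.01 over all rows tested. The acetyltransferase genes Kat2b and Crebbp had 23.2 and 22.3, and 30.2 and 32.6 FPKM in WT, against 19 and 18.6, and 24.6 and 27.4 in dKO (adjusted p = 0.178 and 0.253). Ldb1, an adaptor that joins E protein complexes to LIM proteins, had 261 and 278 FPKM in the WT pair against 236 and 235 in the dKO pair (adjusted p = 0.269). Runx3, a factor of CD8 and cytotoxic T cells, had 26.1 and 29.3 FPKM in the WT pair against 33.4 and 37.1 in the dKO pair (adjusted p = 0.213).

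Other HLH genes were split evenly, 13 higher and 12 lower among 25 tested of 38 listed, with a median log2 difference of 0.0024. Limma called 0, though 2 higher and 3 lower had an unadjusted p below 0.05. Over all rows tested, 9.64% were higher and 7.08% lower at that p. Mxd1, an antagonist of Myc, had 20.6 and 22.3 FPKM in the WT pair against 14.5 and 14.3 in the dKO pair (limma adjusted p = 0.0951). Arntl, the clock factor Bmal1, had 13.5 and 12.8 FPKM in the WT pair against 9.72 and 10.1 in the dKO pair (adjusted p = 0.151). The aryl hydrocarbon receptor gene Ahr had 6.19 and 6.05 FPKM in the WT pair against 8.11 and 8.31 in the dKO pair (adjusted p = 0.158). Mxd4, a relative of Mxd1, had 154 and 158 FPKM in the WT pair against 124 and 137 in the dKO pair (adjusted p = 0.216). Of the Id, E protein and other HLH genes tested, Id2 was thus the one that limma called.

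**Figure D4:**
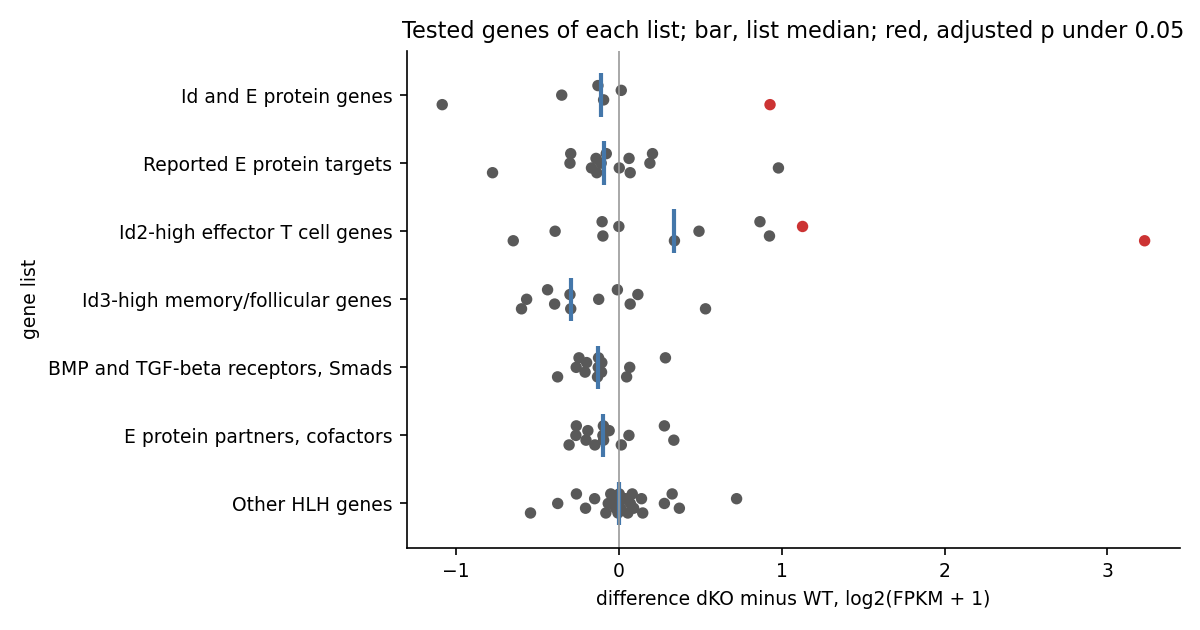
Difference dKO minus WT (log2(FPKM + 1)) of each tested gene in the 7 lists, with a blue bar at the list's median and red for an adjusted p under 0.05. The medians lie between -0.30 and 0.34, and the red points are Id2, Prf1 and Gzmb.

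The rows whose pattern over the 4 libraries was nearest to that of Id2, by the Euclidean distance of mean-centred log2(FPKM + 1), were Runx2 (distance 0.0858), Gadd45g (0.11) and Lgals1 (0.119). Runx2, a Runt-family transcription factor gene, had 6.16 and 6.84 FPKM in the WT pair against 12.8 and 12.9 in the dKO pair (limma adjusted p = 0.0573). Gadd45g, a stress-response gene, had 7.83 and 9.01 FPKM in the WT pair against 18.0 and 17.4 in the dKO pair (adjusted p = 0.0566). Lgals1, the galectin-1 gene, had 246 and 231 FPKM in the WT pair against 479 and 433 in the dKO pair (adjusted p = 0.0566). None of these was called by limma, and the authors' deposited table lists all 3 as higher. Nearest to Id3 were Stx11 (distance 0.0287), March3 (0.0393) and Akr1e1 (0.0443), each highest in WT_0 and not called. These 3 shared the order of the 4 libraries with Id3. The rows near Id2 and Id3 were picked for their likeness over these same libraries, so their shared direction is no independent evidence.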

How the data were processed

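Per the submitters' processing notes, the tools were FastQC, TopHat2 2.1.0 and Cuffdiff 2.2.1, with mm10 as the genome. Annotation, strand setting and read filters are not stated there. The table the authors deposited gives FPKM per gene and library (4 libraries) and group means, and these were not turned into counts. Their deposited table also holds log2 fold changes, p-values and q-values, and 185 genes are listed as higher and 147 as lower in dKO. Library columns end in 0 or 1 while titles number replicates from 1, so each column was tied to its group alone.

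Differences were tested with limma 3.58.1 in R 4.3.3 (lmFit, eBayes with trend, two-sided and unpaired) on log2(FPKM + 1), with Benjamini-Hochberg adjustment over all 11595 rows tested. The test was checked on simulated data. Depth was estimated from rows under an FPKM of 0.15, where the values are multiples of 1 fragment, and from 17 rows with 1 annotated transcript. Exon positions came from the GENCODE annotation of GRCm38 and promoters from RefSeq. Named genes were the 6 members, called members of each list and otherwise up to 4 with the smallest p, and the 3 rows nearest to Id2 and to Id3. One gene that this rule names is not reported here. The members and lists were chosen with earlier results of these data known. Alternatives were other pseudocounts, filters, scalings, variance models, a replicate block, small RNA rows left out and each library left out.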

Additional observations from a re-analysis of the deposited data

How the results depend on the processing

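Limma called 40 rows, 16 with no filter on low values, 186 with small RNA rows left out and 177 without WT_0, in a range of 2 to 217 with 1 library left out. The call of Id2 was lost with no filter (difference 0.93, adjusted p = 0.056), with no intensity trend (0.93, adjusted p = 0.0595) and without dKO_0 or dKO_1, while its difference stayed between 0.89 and 0.96 with 1 library left out. The cause of these losses was not tested. Id2 was higher in dKO in all 14 alternatives and called in 8. Id3 was lower in all 14, from -0.56 to -0.14 with 1 library left out, and called in 1 (without WT_1). Tcf3 changed sign, to -0.037 with quantile normalization, -0.0066 with median centring, -0.011 without WT_1 and -0.042 without dKO_1, and lay between -0.042 and 0.072 with 1 library left out. Tcf4 changed sign without WT_0 (0.033) and lay between -0.22 and 0.033 with 1 library left out. Id1 and Tcf12 were lower in every alternative that could test them, 13 and 14, and called in 0. The difference in the ratio of Id to E protein FPKM was 0.193 to 0.528 with 1 library left out and 0.391 over Id2, Id3, Tcf3 and Tcf12 alone. A filter at an FPKM of 5 left Id1 and Tcf4 untested.

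The labels do not pair the libraries. Deviations of libraries with the same suffix correlated at -0.11 over genes. With the suffix as a replicate block, limma called 7 rows and Id2 had a difference of 0.93 (adjusted p = 0.182). With crossed suffixes, chosen after seeing the data, it called 22 rows, and the call of Id2 was lost there too (adjusted p = 0.107). The unpaired fit had 2 residual degrees of freedom and the blocked fits 1. The libraries number 2 per group, which limits every test here.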
